A study of Mus musculus with 12 samples.

Results

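The genes described here are 10 members of innate immune sensing, the Toll-like receptors Tlr1, Tlr2, Tlr3, Tlr4, Tlr5, Tlr6, Tlr7 and Tlr9 and the adaptors Myd88 and Ticam1. They were chosen by gene symbol, and every probe of the array that carries such a symbol was taken. This gave 16 probes for the 10 genes, out of 46632 probes for 34509 symbols. The tissue was femoral head cartilage from 21-day-old TS-4/5∆cat mice, in which the catalytic domains of the aggrecanases ADAMTS-4 and ADAMTS-5 are deleted. All 3 groups share that genotype, so no wild-type tissue entered the comparisons. Explants were kept for 3 days without treatment, with IL-1α at 10 ng/mL or with retinoic acid at 10 µM, and RNA was measured on 12 Illumina bead arrays, 4 for each group. Of these 4, a pair came from batch 1, made from the line named Donut, and a pair from batch 2, made from the line named Gertrude. Mouse line and batch therefore cannot be told apart.

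Toll-like receptors recognise microbial products and fragments of damaged tissue. Tlr1, Tlr2, Tlr4, Tlr5 and Tlr6 act at the cell surface, where Tlr2 pairs with Tlr1 or Tlr6, while Tlr3, Tlr7 and Tlr9 sense nucleic acids in endosomes. Most of them signal through the adaptor MyD88, which the IL-1 receptor also uses, whereas Tlr3, and Tlr4 from endosomes, signal through TRIF, the product of Ticam1. In cartilage, Tlr2 and Tlr4 are known as sensors of matrix fragments.

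Of the 16 probes, 7 probes of 6 genes were detected on enough arrays to be tested, which required a detection p under 0.05 on at least 4 of the 12 arrays. These were 1 probe each for Tlr2, Tlr5, Tlr6, Myd88 and Ticam1 and 2 probes for Tlr4. Tlr1, Tlr3 and Tlr9 were detected on 0 of 12 arrays, and Tlr7 on 1, an untreated array of batch 2. Among the other probes of the tested genes, the Tlr4 probe ILMN_2690004, the Tlr6 probe ILMN_1254605 and the Ticam1 probe ILMN_1220387 were detected on 0 arrays and the Ticam1 probe ILMN_1256875 on 1. An undetected probe gives only an upper bound on its transcript, and a probe may also miss the transcript that is present. The lowest detected signal of an array lay between 4.86 and 5.48, in log2 normalized intensity, the unit of all levels below.

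**Figure D1:**
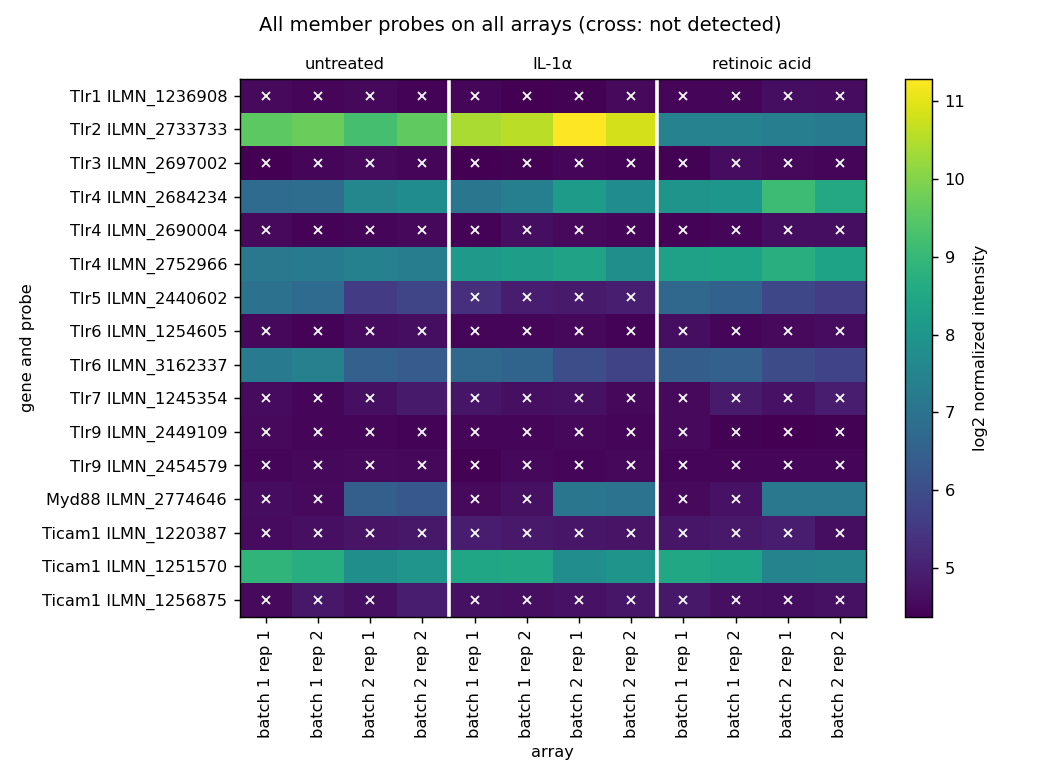
Log2 normalized intensity (colour) of the 16 probes (rows) on the 12 arrays (columns, grouped by treatment and batch), with a cross where a probe was not detected. The 7 tested probes stand out, with Tlr2 brightest on the IL-1α arrays, Tlr5 crossed on all 4 IL-1α arrays and Myd88 crossed on all 6 arrays of batch 1.

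Promoters are shown for Tlr2, which had the largest differences between treatments among the 7 tested probes, for Tlr5, which was undetected with IL-1α, and for Myd88, which was detected in 1 batch. The 250 bases before the transcription start come from RefSeq, build GRCm38.p6. The promoter set used here held 8 of the 10 genes and lacked Tlr4 and Tlr7. Each is read 5′ to 3′ toward the gene, at chr3:83841609-83841858 on the minus strand for Tlr2, chr1:182954538-182954787 on the plus strand for Tlr5 and chr9:119340019-119340268 on the minus strand for Myd88. Capitals mark matches to searched motifs.
Tlr2: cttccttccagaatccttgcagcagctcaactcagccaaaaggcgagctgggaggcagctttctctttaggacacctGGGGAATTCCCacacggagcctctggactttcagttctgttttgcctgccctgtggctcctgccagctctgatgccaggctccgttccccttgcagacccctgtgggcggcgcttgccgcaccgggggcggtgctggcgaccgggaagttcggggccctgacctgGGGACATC
Tlr5: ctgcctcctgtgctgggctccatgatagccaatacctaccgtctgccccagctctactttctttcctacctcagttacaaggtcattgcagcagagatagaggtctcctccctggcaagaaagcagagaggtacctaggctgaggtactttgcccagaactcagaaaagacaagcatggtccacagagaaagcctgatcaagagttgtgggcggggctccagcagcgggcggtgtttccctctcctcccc
Myd88: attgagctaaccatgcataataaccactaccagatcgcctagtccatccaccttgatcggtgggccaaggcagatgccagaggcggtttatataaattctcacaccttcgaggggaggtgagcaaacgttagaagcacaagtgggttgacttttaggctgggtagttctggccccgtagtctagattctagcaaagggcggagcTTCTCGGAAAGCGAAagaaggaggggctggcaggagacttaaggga
In Tlr2 the capitals are matches to the NF-kappaB consensus, a pair of overlapping matches that starts 173 bases before the start and another that starts 8 bases before it and runs past the printed stretch. Among all 32851 promoters of the table, 4.51% held such a match on either strand, and of the other members Tlr3 did. In Myd88 the capitals hold a GAS element, spelled TTCNNNGAA, that starts 46 bases before the start and overlaps an ISRE core, spelled GAAANNGAA, that starts 40 bases before it. The GAS letters were in 8.30% of promoters and in those of Tlr1, Tlr6 and Myd88, and the ISRE core letters were in 8.56% and in those of Tlr6 and Myd88. The Tlr5 promoter held none of these. The DR5 form of the retinoic acid response element was found in 0 of the 10 member promoters and in 0.0974% of all promoters. These matches describe the letters of the windows searched and are not evidence of binding.

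Arrays of the same treatment and batch correlated at 0.983 to 0.995 over the tested probes, and those alike in treatment but not in batch at 0.868 to 0.902. Those alike in batch but not in treatment correlated at 0.932 to 0.968, so sharing a batch made arrays more alike than sharing a treatment. Between 13786 and 14965 probes were detected per array in batch 1 and between 16732 and 19485 in batch 2. Genes that mark each treatment responded. Cyp26a1, a retinoic acid-degrading enzyme induced by its substrate, was at least 19.2-fold higher with retinoic acid than untreated (limma adjusted p = 6.18e-10), and Nos2, the inducible nitric oxide synthase, at least 14.1-fold higher with IL-1α (limma adjusted p = 1.21e-10). All 8 chondrocyte markers examined were detected. They fell in 8 of 8 cases with retinoic acid and in 6 of 8 with IL-1α, so differences in the tissue's RNA are large, and in bulk RNA a change in the number of cells of a type and a change in RNA per cell cannot be told apart. Of 10 macrophage markers 8 were detected, while Ptprc and Itgam were undetected on all 12 arrays.

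Retinoic acid and IL-1α differed in their effects on Tlr2 and Tlr5. For Tlr4 they differed on both tested probes, but the call on ILMN_2752966 was fragile. Tlr2 rose with IL-1α and fell with retinoic acid, Tlr4 rose with retinoic acid on both tested probes and with IL-1α on 1 of them, Tlr5 was at background with IL-1α and not with retinoic acid, and Tlr6 fell with both. With retinoic acid against untreated, 5 of the 7 probes were called at a limma adjusted p under 0.05, 2 higher and 3 lower. Over all 18200 tested probes 35.4% were called, 18.2% higher and 17.1% lower. With IL-1α against untreated 4 of 7 were called, 2 higher and 2 lower, beside 29.3% of all probes, 15.2% higher and 14.1% lower. Between retinoic acid and IL-1α 4 of 7 were called, 3 higher and 1 lower with retinoic acid, beside 31.1% of all probes, 15.2% higher and 15.8% lower. With 7 probes these shares are too coarse to set the family apart from the array. The median log2 difference of the 7 probes was −0.12 for retinoic acid against untreated, where that of all probes was 0.02. It was 0.35 for IL-1α against untreated, where that of all probes was 0.02. The first 2 comparisons share the 4 untreated arrays, so their differences are not independent.

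**Figure D2:**
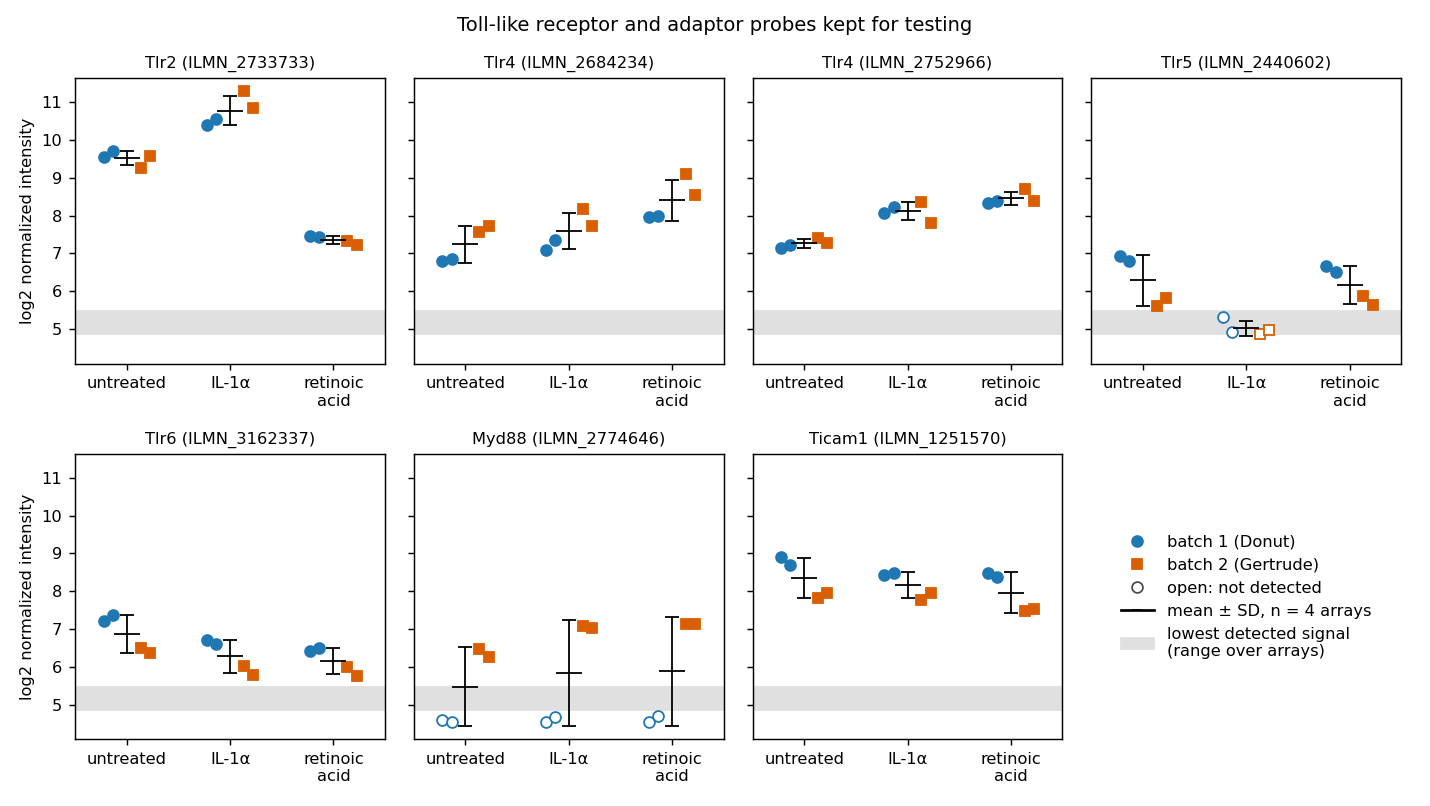
Log2 normalized intensity of the 7 tested probes on each array by treatment. Circles are batch 1 and squares batch 2, open symbols are undetected, bars are mean ± SD of 4 arrays, and the grey band spans the lowest detected signals of the arrays, 4.86 to 5.48. The 3 treatments do not overlap for Tlr2, while Myd88 separates by batch.

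Tlr2, the receptor for bacterial lipoproteins, gave the widest separation of treatments. Its level on the untreated arrays was 9.54 and 9.70 in batch 1 and 9.26 and 9.59 in batch 2. With IL-1α it was 10.39 and 10.56 in batch 1 and 11.28 and 10.84 in batch 2. With retinoic acid it was 7.45 and 7.43 in batch 1 and 7.33 and 7.22 in batch 2. Every IL-1α array lay above every untreated array, and every untreated array above every retinoic acid array. Tlr2 rose 2.38-fold with IL-1α, a log2 difference of 1.25 (SE 0.18, limma adjusted p = 2.2e-04). It fell 4.47-fold with retinoic acid, a log2 difference of −2.16 (SE 0.18, limma adjusted p = 8.68e-07). Retinoic acid against IL-1α gave a 10.6-fold lower level, −3.41 on the log2 scale (SE 0.18, limma adjusted p = 1.49e-08). The effect of retinoic acid against untreated was −2.18 in batch 1 and −2.14 in batch 2. That of IL-1α against untreated was 0.86 in batch 1 and 1.64 in batch 2, a difference that was not called (limma adjusted p = 0.0788).

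Neutrophil and macrophage markers were examined beside Tlr2 because both cell types carry the receptor. The summed linear level of the 10 neutrophil markers, all detected, was 14700 to 17400 on untreated arrays of batch 1 and 5940 to 5990 with retinoic acid. In batch 2 it was 9840 to 11700 untreated and 14300 to 15200 with retinoic acid. The higher sum in batch 2 came from S100a8, S100a9 and Prtn3, which were 0.74, 0.54 and 1.56 higher there on the log2 scale. The other 7 markers had lower means in both batches. In batch 2 the means of Elane, Ltf and Cxcr2 were close, at 7.80, 9.97 and 5.10 untreated and 7.73, 9.90 and 5.05 with retinoic acid. Cxcr2 was undetected on all arrays of batch 1. Over both batches 6 of the 10, among them Ngp, Mpo and Ctsg, fell with retinoic acid, as Tlr2 did, and 4 were not called. With IL-1α the neutrophil sum was 18100 to 18600 in batch 1 and 17400 to 18400 in batch 2. These sums were above the untreated ones in both batches, as was Tlr2, although the 10 markers taken singly were not called by limma. In batch 1 the markers were split. S100a8, the brightest, had a mean of 12.74 untreated and 13.18 with IL-1α, and Ngp, Ltf, Elane and Ctsg were also higher. S100a9, Camp, Mpo, Prtn3 and Cxcr2 were lower there with IL-1α than untreated. The macrophage sum with IL-1α was 6710 to 6820 in batch 1, beside 6910 to 7100 untreated, and 3390 to 3800 in batch 2, beside 5750 to 6700 untreated. Of 7 tested macrophage markers 4 fell with IL-1α and 1, Cd68, rose. In batch 1 the chondrocyte sum was 62400 to 63500 untreated, 10100 to 10400 with retinoic acid and 35300 to 36800 with IL-1α. In batch 2 it was 70100 to 74000 untreated, 14900 to 15300 with retinoic acid and 46400 to 47100 with IL-1α. This sum fell with retinoic acid, as Tlr2 did, and also with IL-1α, where Tlr2 rose. The part of neutrophils, macrophages or chondrocytes in the differences of Tlr2 was not tested.

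Tlr4, the receptor for lipopolysaccharide, was read by a pair of tested probes. After centring within each batch their levels correlated at 0.883 over the 12 arrays, as a description. On ILMN_2752966 the untreated readings were 7.14 and 7.23 in batch 1 and 7.41 and 7.28 in batch 2. With retinoic acid the readings were 8.34 and 8.39 in batch 1 and 8.69 and 8.39 in batch 2, all above every untreated array. With IL-1α they were 8.08 and 8.23 in batch 1 and 8.36 and 7.82 in batch 2, also above every untreated array but overlapping retinoic acid. On ILMN_2684234 the untreated readings were 6.80 and 6.85 in batch 1 and 7.57 and 7.74 in batch 2. With retinoic acid the readings were 7.95 and 7.997 in batch 1 and 9.11 and 8.56 in batch 2, and with IL-1α 7.09 and 7.36 in batch 1 and 8.18 and 7.73 in batch 2. On this probe retinoic acid again lay above every untreated array, whereas IL-1α overlapped the untreated arrays.

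Both probes rose with retinoic acid by nearly the same amount. ILMN_2752966 was 2.28-fold higher, 1.19 on the log2 scale (SE 0.12, limma adjusted p = 4.41e-06), and ILMN_2684234 was 2.24-fold higher, 1.16 on the log2 scale (SE 0.13, limma adjusted p = 1.62e-05). The probes parted with IL-1α. ILMN_2752966 rose 1.81-fold (log2 0.86, SE 0.12, limma adjusted p = 1.52e-04), while the difference of 0.35 on ILMN_2684234 was not called (SE 0.13, limma adjusted p = 0.0614). Retinoic acid exceeded IL-1α by 0.81 on ILMN_2684234 (SE 0.13, limma adjusted p = 3.63e-04). On ILMN_2752966 it exceeded IL-1α by 0.33 (SE 0.12, limma adjusted p = 0.0461), a call that was lost without any 1 of 10 of the 12 arrays, with adjusted p up to 0.176. Within batches it was not called, at 0.21 in batch 1 (limma adjusted p = 0.433) and 0.46 in batch 2 (limma adjusted p = 0.0707). Of 7 tested macrophage markers, 4 rose with retinoic acid and 3 were not called. The sum of the 10 listed was 8940 to 9070 in batch 1 and 8320 to 8340 in batch 2. Untreated it was 6910 to 7100 and 5750 to 6700. With IL-1α, where ILMN_2752966 rose, 4 of the 7 fell and 1 rose. The sum with IL-1α was 6710 to 6820 in batch 1 and 3390 to 3800 in batch 2, below untreated. The part of macrophages in the differences of Tlr4 was not tested.

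Tlr5, the flagellin receptor, was detected on all untreated and all retinoic acid arrays and on 0 of 4 IL-1α arrays. The untreated level was 6.94 and 6.80 in batch 1 and 5.61 and 5.82 in batch 2, and that with retinoic acid 6.68 and 6.52 in batch 1 and 5.86 and 5.63 in batch 2. With IL-1α the readings were 5.31 and 4.93 in batch 1 and 4.88 and 4.97 in batch 2, within the range of the lowest detected signals. Over both batches the mean IL-1α level was at least 2.06-fold lower than untreated (limma adjusted p = 2.0e-04). Retinoic acid was at least 1.89-fold higher than IL-1α (limma adjusted p = 2.8e-04). The first bound is smaller in batch 2 alone. There the untreated mean was 5.72 and the lowest detected signals of the IL-1α arrays were 5.07 and 5.02. Retinoic acid and untreated overlapped and differed by −0.12 (95% interval −0.51 to 0.26, limma adjusted p = 0.639). The fall with IL-1α was −1.75 in batch 1 and −0.79 in batch 2, and this difference was called (limma adjusted p = 0.0298). Both sizes are measured against IL-1α readings at background, which give only a bound on the transcript, and the untreated level was higher in batch 1. The cause of the difference was not tested.

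Tlr6, which pairs with Tlr2 for diacylated lipopeptides, fell with both treatments. The untreated level was 7.20 and 7.39 in batch 1 and 6.50 and 6.37 in batch 2. With IL-1α it was 6.71 and 6.60 in batch 1 and 6.02 and 5.80 in batch 2, and with retinoic acid 6.42 and 6.50 in batch 1 and 5.99 and 5.77 in batch 2. Within each batch both untreated arrays lay above all treated arrays, while over both batches the groups overlapped because batch 1 was brighter. The fall was −0.58 with IL-1α (SE 0.11, limma adjusted p = 2.15e-03) and −0.69 with retinoic acid (SE 0.11, limma adjusted p = 3.74e-04). The treatments differed from each other by −0.11 (95% interval −0.36 to 0.13, limma adjusted p = 0.511). Thus the partners Tlr2 and Tlr6 moved in opposite directions with IL-1α and both fell with retinoic acid.

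Myd88, the adaptor shared by most Toll-like receptors and the IL-1 receptor, was undetected on all 6 arrays of batch 1, at 4.55 to 4.72, and detected on all 6 of batch 2. In batch 2 it read 6.48 and 6.28 untreated, 7.08 and 7.02 with IL-1α and 7.13 and 7.14 with retinoic acid. Both treatments lay above the untreated arrays there. Over both batches the differences were not called, at 0.41 for retinoic acid (SE 0.15, limma adjusted p = 0.0525) and 0.35 for IL-1α (SE 0.15, limma adjusted p = 0.0966). Retinoic acid was called in 5 alternatives, with adjusted p down to 0.0155, and IL-1α in 1, with adjusted p = 0.0342, without untreated batch 1 replicate 1. Contrasts within each batch, which were added after the probe was seen to be undetected in batch 1, gave a rise in batch 2 of 0.76 with retinoic acid (SE 0.14, limma adjusted p = 6.83e-04) and 0.67 with IL-1α (SE 0.14, limma adjusted p = 3.21e-03). In batch 1 no difference can be measured at this signal. The effects were not shown to differ between batches, with limma adjusted p = 0.0812 for retinoic acid and 0.0823 for IL-1α.

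Ticam1, which encodes TRIF, was detected on all 12 arrays. The untreated level was 8.90 and 8.69 in batch 1 and 7.81 and 7.97 in batch 2. It was 8.44 and 8.48, and 7.77 and 7.96, with IL-1α, and 8.48 and 8.37, and 7.48 and 7.52, with retinoic acid. The retinoic acid arrays were below both untreated arrays of their own batch, and the groups overlapped over both. The fall with retinoic acid was −0.38 (SE 0.12, limma adjusted p = 0.0237), and it was not called within either batch, at −0.37 in batch 1 (limma adjusted p = 0.0659) and −0.39 in batch 2 (limma adjusted p = 0.0504). It was also lost without any 1 of 4 arrays, both untreated arrays of batch 1 and both retinoic acid arrays of batch 2, with adjusted p up to 0.0887. IL-1α gave −0.18 (95% interval −0.43 to 0.08, limma adjusted p = 0.285).

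**Figure D3:**
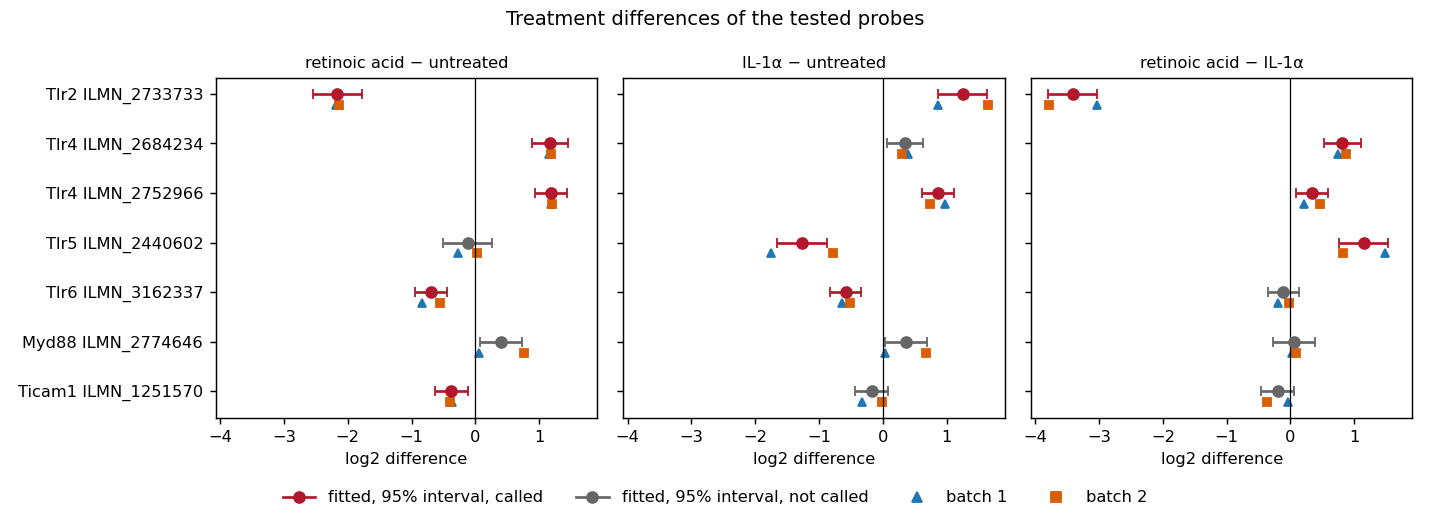
Log2 differences (horizontal axis) of the 7 tested probes (vertical axis) in the 3 comparisons. Circles with bars are fitted differences with 95% intervals, red where called, and the small triangles and squares are the differences in batch 1 and batch 2. Tlr2 lies at −2.16, 1.25 and −3.41 from left to right, and both Tlr4 probes lie near 1.2 with retinoic acid.

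Within batches the number of called probes was 4 of 7 in batch 1 and 5 of 7 in batch 2 for retinoic acid against untreated, where 32.2% and 31.4% of all probes were called. It was 4 and 5 for IL-1α against untreated, where 34.2% and 19.9% of all were called, and 3 and 3 for retinoic acid against IL-1α, where 32% and 28.2% were called. The effect differed between batches for 0 of 7 probes for retinoic acid against untreated by limma, beside 2.86% of all probes, and 1 probe, Myd88, had an unadjusted p under 0.05. It differed for 1 of 7, Tlr5, for IL-1α against untreated, beside 4.82%, where 3 probes had an unadjusted p under 0.05. It differed for 0 of 7 for retinoic acid against IL-1α, beside 8.76%, where 2 probes, Tlr2 and Tlr5, had an unadjusted p under 0.05. The levels themselves differed between batches for 5 of the 7 probes, beside 76.3% of all probes. Batch 2 was 2.24 higher on the log2 scale for Myd88 and 0.80 higher for the Tlr4 probe ILMN_2684234, and it was lower for Ticam1 (−0.81), Tlr5 (−0.73) and Tlr6 (−0.73). Tlr2 and the Tlr4 probe ILMN_2752966 differed by 0.07 and 0.09 and were not called.

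In the exact permutation test over 4 arrays against 4, two-sided, 8 of the 21 comparisons of tested probes reached 0.0286, the smallest p this design allows, without adjustment. These were the 8 in which the groups did not overlap, all 3 for Tlr2, 3 for Tlr4 and 2 for Tlr5. The matching share over all tested probes of the array is not given here. The 8 therefore describe these probes and do not set the family apart from the array.

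The genes whose level was most like that of a member were taken by Pearson correlation over the 12 arrays after centring within each batch. For Tlr2 they were Mest (r = 0.992), Pdpn (r = 0.991) and Anxa8 (r = 0.990). For the Tlr4 probe ILMN_2684234 the first was Casp1 (r = 0.974), and for ILMN_2752966 it was Sgk (r = 0.983), so its probes had different nearest genes. Pfkl came first for Tlr5 (r = 0.978) and Serpinh1 for Tlr6 (r = 0.978). The arrays share treatments and batches, so these values describe likeness of pattern and carry no test.

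The surrounding pathway was read from 60 genes in lists of accessory proteins, adaptors, kinases, regulators, ligands and targets, of which 43 were tested. With retinoic acid 14 rose, 6 fell and 23 were not called, a median of 0.20 on the log2 scale. With IL-1α 17 rose, 3 fell and 23 were not called, a median of 0.37. Between retinoic acid and IL-1α 8 were higher with retinoic acid, 15 were lower and 20 were not called, a median of −0.19. The medians over all 18200 probes were 0.02, 0.02 and −0.03. Of all those probes, 18.2% were higher and 17.1% lower with retinoic acid, and 15.2% were higher and 14.1% lower with IL-1α. Between retinoic acid and IL-1α the shares were 15.2% and 15.8%. Counts of the shorter lists below are to be read beside the same shares. Without batch and replicate terms in the model, 4 rose and 2 fell with retinoic acid, 9 rose and 1 fell with IL-1α, and 3 were higher and 10 lower with retinoic acid than with IL-1α.

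Of the 4 tested accessory proteins, 3 rose with retinoic acid and 2 with IL-1α. Cd14, which hands lipopolysaccharide to Tlr4 and also serves Tlr2, read 8.09, 8.34, 8.35 and 7.62 on the untreated arrays. It read 10.95, 10.92, 10.70 and 10.75 with IL-1α and 9.70, 9.63, 8.94 and 8.95 with retinoic acid, in the order batch 1 then batch 2. The 3 groups did not overlap, and Cd14 rose 6.64-fold with IL-1α (limma adjusted p = 1.32e-07) and 2.31-fold with retinoic acid (limma adjusted p = 6.32e-05). Ly96, the MD-2 subunit of the Tlr4 complex, rose by 0.63 with IL-1α and 0.93 with retinoic acid on the log2 scale. Cd14 and Ly96 therefore rose with retinoic acid alongside Tlr4 while Tlr2 fell. Ly86, which encodes MD-1, rose with retinoic acid by 1.13 and was undetected on all IL-1α arrays. Its rise with retinoic acid was 0.57 in batch 1 and 1.68 in batch 2, a difference that was called (limma adjusted p = 0.0389).

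All 3 tested chaperones and transport proteins of the receptors were called with retinoic acid. Unc93b1, which carries nucleic-acid sensors to endosomes, rose by 0.73 with retinoic acid and 0.49 with IL-1α. Hsp90b1, the gp96 chaperone that folds most Toll-like receptors, fell by 1.02 on the log2 scale with retinoic acid and by 0.76 with IL-1α. Its co-chaperone Cnpy3 fell by 0.56 with retinoic acid. Tirap, the adaptor that bridges Tlr2 and Tlr4 to MyD88, rose by 0.62 with IL-1α.

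Among 15 tested kinases, ubiquitin ligases and transcription factors, 8 rose with retinoic acid and 7 were not called, while 4 rose with IL-1α and 11 were not called. Irak2, a kinase of the MyD88 complex, rose 3.25-fold with retinoic acid (log2 1.70, SE 0.11, limma adjusted p = 1.08e-07) and 3.03-fold with IL-1α (log2 1.60, SE 0.11, limma adjusted p = 4.89e-07). Irf5, Peli1, Traf6, Irak4 and Tbk1 rose with retinoic acid by 1.09, 0.94, 0.59, 0.58 and 0.44 on the log2 scale, while their differences with IL-1α, 0.22, 0.37, 0.38, 0.33 and 0.30, were not called. Ikbke, a TRIF-branch kinase, rose by 1.35 with IL-1α and 0.41 with retinoic acid. Traf3, an adaptor of the interferon branch, rose by 0.59 with IL-1α and was −0.78 lower with retinoic acid than with IL-1α.

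Of 6 tested negative regulators, 4 rose with IL-1α, whereas 1 rose and 1 fell with retinoic acid. Irak3, the inhibitory IRAK-M, rose by 1.30 with IL-1α (SE 0.13, limma adjusted p = 1.1e-05) and differed by 0.00 with retinoic acid. Tnip1 rose by 1.34 and Tollip by 0.45 with IL-1α. Tnfaip3, which encodes the deubiquitinase A20, rose by 0.84 with IL-1α and 1.40 with retinoic acid, and it was undetected on both untreated arrays of batch 1. Il1rl1, the IL-33 receptor, read 10.23, 10.31, 10.98 and 11.14 untreated and 6.62, 6.84, 7.30 and 7.19 with retinoic acid, which was 12.8-fold lower (limma adjusted p = 1.54e-09). With IL-1α its level overlapped the untreated arrays.

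Endogenous ligands from the matrix and from cells fell or were not called, with 3 of 8 lower with retinoic acid and 2 of 8 with IL-1α. The matrix proteins Bgn and Fn1, biglycan and fibronectin, fell by 1.18 and 0.98 on the log2 scale with retinoic acid. Tnc, tenascin C, fell by 1.60 with IL-1α, and Hmgb1, a nuclear protein released from damaged cells, fell by 0.46. Saa3, an acute-phase protein, fell by 2.62 with retinoic acid, by 0.93 in batch 1 and 4.31 in batch 2, which differed (limma adjusted p = 1.65e-06). These genes are also products of cartilage cells, and the fall of chondrocyte markers given above moved with them. Its part in these values was not tested.

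All 4 tested targets of the MyD88 branch rose with IL-1α, and 1 of them, Il1b, rose with retinoic acid. Cxcl1, a neutrophil chemokine, rose 11.1-fold with IL-1α (limma adjusted p = 6.60e-06). Its difference of 0.84 with retinoic acid was not called, with 1.50 in batch 1 and 0.17 in batch 2, which differed (limma adjusted p = 6.34e-03). Il1b rose by 2.69 with IL-1α and 1.83 with retinoic acid, and the latter was 2.67 in batch 1 and 0.98 in batch 2. Il1b was undetected on both untreated arrays of batch 2, so the difference there is measured against background. Nfkbia and Nfkbiz, genes induced by NF-kappaB, rose by 0.93 and 1.72 with IL-1α and differed by 0.16 and 0.22 with retinoic acid. Nfkbia was undetected on all 6 arrays of batch 1, so its pooled values include readings at background. In batch 2 its mean was 5.69 untreated, 7.14 with IL-1α and 5.74 with retinoic acid. All 4 were lower with retinoic acid than with IL-1α. Of 5 listed TRIF targets Ccl5 alone was tested. It read 9.93, 9.90, 11.78 and 11.96 with IL-1α and with retinoic acid it was below detection on 4 of 4 arrays, at least 52.1-fold lower (limma adjusted p = 1.11e-08). These targets are also induced by IL-1 through its own receptor, and the part of any Toll-like receptor in their level was not tested.

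**Figure D4:**
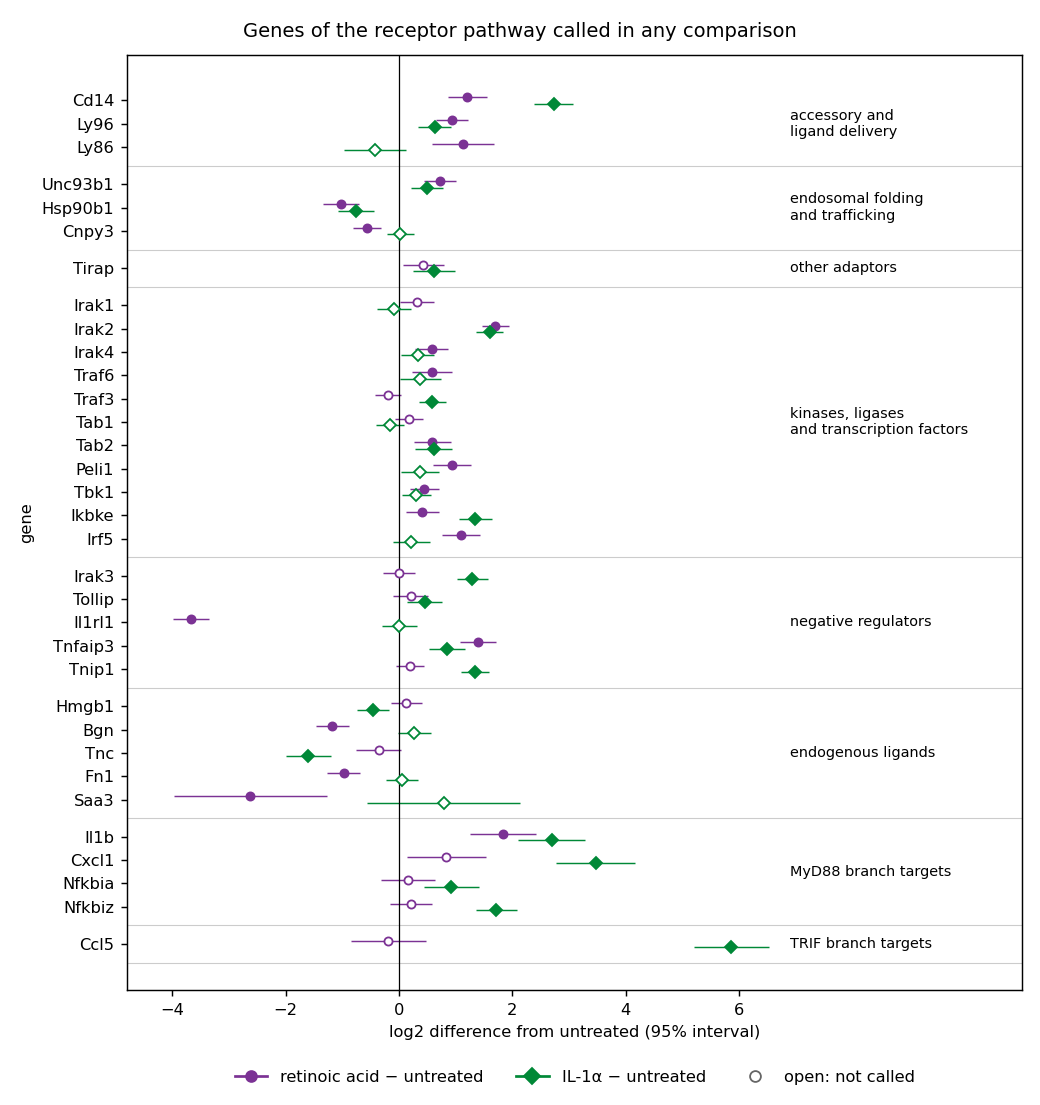
Log2 difference from untreated (horizontal axis, with 95% intervals) of the pathway genes called in any comparison, grouped by list. Circles are retinoic acid and diamonds IL-1α, and open symbols were not called. Il1rl1 stands at −3.68 with retinoic acid, and all 4 targets of the MyD88 branch lie further right with IL-1α than with retinoic acid.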

How the data were processed

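RNA from femoral head cartilage explants was measured on 12 arrays, 2 per treatment and batch. The authors deposited probe intensities in 1 table, with no background subtraction or normalization, and a detection score per probe and array. The scores rise with intensity, so 1 minus the deposited score was taken as the detection p. The bead-summary software and its build are not given in the sources used here, and limma is named without a version in the submitters' processing notes. Every value column belongs to a labelled array, with 0 left over.

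Intensities were background-corrected with detection p-values, quantile normalized and log2-transformed with an offset of 16 by neqc in limma 3.58.1 (R 4.3.3). A probe entered the tests when its detection p was below 0.05 on 4 or more arrays, which 18200 of 46632 did. Quantile normalization makes changes relative to each array's distribution. The model held treatment and, for batch by replicate, a 4-level factor, after the study's methods, and the Benjamini-Hochberg adjustment ran over all 18200 probes at 0.05. Treatment-by-batch terms tested differences between batches, without the replicate factor. Bounds pool both batches and compare the brighter mean with the higher of each dim array's lowest detected signal and its own value. The steps were tested on simulated data. The number of arrays limits the precision.

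The labels describe wells of 4 hips and 10% serum before treatment, and the study's methods describe serum-free culture and 3 unpooled mice per treatment that are not tied to arrays. The p-values therefore measure the spread between arrays, which may be technical. The members and lists were chosen with earlier results of these data known. All members were named, and of the pathway lists the genes called in any comparison could be named. A gene with several probes was taken by the kept probe of highest mean. Alternatives were no background correction, median scaling, normalization within batches, an offset of 50, other filters, other blocks and leaving out each array.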

Additional observations from a re-analysis of the deposited data

Results flagged for a closer look

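The Tlr4 probe ILMN_2752966 read 8.69 on the retinoic acid array of batch 2 replicate 1, apart from the other 3 retinoic acid arrays, which lay between 8.34 and 8.39. It was the 1 array that stood apart among 21 groups of 4 arrays examined, where chance flags about 1 in 20. The call of Tlr4 with retinoic acid against untreated held without it. The effect of IL-1α on Tlr5 differed between the batches by 0.96 on the log2 scale, at −1.75 in batch 1 and −0.79 in batch 2 (limma adjusted p = 0.0298). The probe was undetected with IL-1α in both batches, so both sizes are measured against background. The cause of the difference was not tested. Mouse line and batch cannot be told apart.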

How the results depend on the processing

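The 3 Tlr2 calls, both Tlr4 calls for retinoic acid against untreated, the IL-1α call of ILMN_2752966 and both Tlr5 calls kept direction and side of the threshold in every alternative that kept the probe. The number of called probes was 4 to 6 without 1 array for retinoic acid against untreated, 4 to 5 for IL-1α against untreated and 3 to 4 for retinoic acid against IL-1α. With no batch and no replicate block it was 3 for retinoic acid against untreated and 2 for retinoic acid against IL-1α, and both Tlr6 calls and those of Ticam1 and Tlr4 against IL-1α were lost. Deviations from the mean of each treatment and batch correlated at −0.11 to 0.39 between same-numbered arrays. Whether the replicate numbers pair arrays was not tested. With batch only and no replicate block the Tlr4 call on ILMN_2752966 for retinoic acid against IL-1α was lost (0.33, limma adjusted p = 0.0682) and Myd88 was called with retinoic acid (0.41, limma adjusted p = 0.0344). Myd88 was also called with retinoic acid with no background correction, with detection p under 0.01, and without untreated batch 1 replicate 1 or retinoic acid batch 1 replicate 1, and with IL-1α without untreated batch 1 replicate 1. The pathway genes that rose with retinoic acid numbered 4 to 18 over the alternatives that kept all 12 arrays and those that fell 2 to 6. With IL-1α 9 to 18 rose and 1 to 4 fell, and retinoic acid against IL-1α gave 3 to 9 higher and 10 to 17 lower. The lowest count of each range came with no batch and no replicate block. Median scaling also lost that Tlr4 call and that of Ticam1. It turned uncalled values, Tlr5 for retinoic acid against untreated to 0.0225 and Tlr6 for retinoic acid against IL-1α to 0.0193. Without 1 array, Tlr5 for retinoic acid against untreated ranged from −0.27 to 0.0049 and Myd88 for retinoic acid against IL-1α from −0.036 (−0.0061 without another array) to 0.14. The Tlr4 probe ILMN_2684234 was called with IL-1α in 2 alternatives.

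The number of member probes whose effect differed between batches moved with the setting. For IL-1α against untreated they numbered 2 (Tlr2 and Tlr5) with no background correction and 0 with median scaling or normalization within batches. For retinoic acid against untreated it was 1, Myd88, with normalization within batches, an offset of 50 or no filter. For retinoic acid against IL-1α it was 1, Tlr2, with no background correction or an offset of 50. Without 1 array these counts were 0 to 1, 0 to 2 and 0 to 1 for retinoic acid against untreated, IL-1α against untreated and retinoic acid against IL-1α. The Tlr5 difference was lost without untreated batch 1 replicate 1, untreated batch 2 replicate 1, IL-1α batch 1 replicate 2 or, in batch 2, either IL-1α array. The cause was not tested. Signal over background limits Tlr5 with IL-1α and Myd88 and Nfkbia in batch 1, where only bounds can be given, and Ly86, Tnfaip3, Il1b and Ccl5 where an arm was undetected in a batch.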
